A study of Mus musculus with 6 samples.

Results

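The 10 genes described here are immediate early response genes, given as a list: Fos and Fosb of the FOS family, Jun, Junb and Jund of the JUN family, the zinc finger factor genes Egr1 and Egr2, the orphan nuclear receptor gene Nr4a1, and the immediate early response genes Ier2 and Ier3. All 10 were found among the 25690 gene symbols of the data and all 10 were among the 15474 genes with enough counts to be tested. They were measured by RNA-seq in immature CD27 single-positive (CD27SP) NK cells, sorted from bone marrow (BM) as NK1.1+ and CD27+ cells without CD11b or lineage markers such as CD3. The mice were Ncr1cre Myc wt/wt (control) or Ncr1cre Myc fl/fl (Myc-deficient), with 3 libraries per genotype carrying the replicate numbers 1, 2 and 4. The labels name no treatment. Both genotypes carried the Cre recombinase under control of Ncr1, the gene of the NK receptor NKp46, on a C57BL/6 background. Cre therefore acts only from the stage at which Ncr1 is switched on, and NKp46 itself was not part of the gate. The methods describe sex- and age-matched mice of several weeks to a few months of age for the experiments as a whole, and the labels give no age for these libraries. Nor do the labels say whether each library came from a separate mouse, so the p-values measure the spread between these libraries, which may be technical.

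Immediate early genes are transcribed within minutes of a growth factor, cytokine, receptor or stress signal, without any need for new protein synthesis, and their mRNAs are short-lived. FOS and JUN proteins pair through leucine zippers to form activator protein 1 (AP-1), a transcription factor that binds DNA as a dimer. The ERK branch of the MAPK cascade switches many of these genes on through SRF and its partners and through CREB, and several of the gene products feed back on the same cascade. In NK cells, IL-15 and activating receptors both signal through this cascade, and MYC is itself the product of a gene of the early response class.

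The libraries held between 54550907 and 64962491 estimated counts, apart from Ncr1cre Myc wt/wt replicate 1 with 8101219. The targeted gene, Myc, was at 183 ± 18.1 CPM (counts scaled to library size by TMM) in control libraries and at 67.5 ± 7.94 CPM in Myc-deficient libraries (mean ± SD, n = 3 each), with no overlap. Its log2 fold change was −1.44 (SE 0.15, adjusted p = 0.0019, edgeR). The markers of the labelled cell type were present. The 10 NK cell genes listed, among them Ncr1, Klrb1c, Eomes and Cd27, summed to between 11748 and 11971 CPM in control libraries and to between 13241 and 13715 CPM in Myc-deficient libraries.

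Most of the immediate early genes were higher in Myc-deficient CD27SP NK cells. At an adjusted p below 0.01 and a log2 fold change of at least 0.5, 6 of the 10 rose, namely Fos, Junb, Egr1, Nr4a1, Ier2 and Ier3, and 0 fell (edgeR's quasi-likelihood test with the replicate number as a block, Benjamini-Hochberg adjustment over all genes tested). Of all genes tested, 1.28% passed this limit upwards (198 genes) and 0.872% downwards (135 genes). At an adjusted p below 0.05 alone, 9 of the 10 were higher against 4.45% of all genes, the exception being Fosb. In 9 of the 10 every Ncr1cre Myc fl/fl library was above every Ncr1cre Myc wt/wt library, again with Fosb as the exception, and the same held for 16.2% of all genes tested. All 10 were higher at an unadjusted p under 0.05, against 12.4% of all genes. The median log2 fold change was 0.98 over the 10 genes and 0.014 over all genes tested. Summed, the 10 genes took 3835 ± 812 CPM in control libraries and 7956 ± 1542 CPM in Myc-deficient libraries (mean ± SD, n = 3 each), a ratio of 2.07. In such bulk libraries, a larger share of cells that transcribe a gene and more RNA of that gene per cell cannot be told apart.

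**Figure D1:**
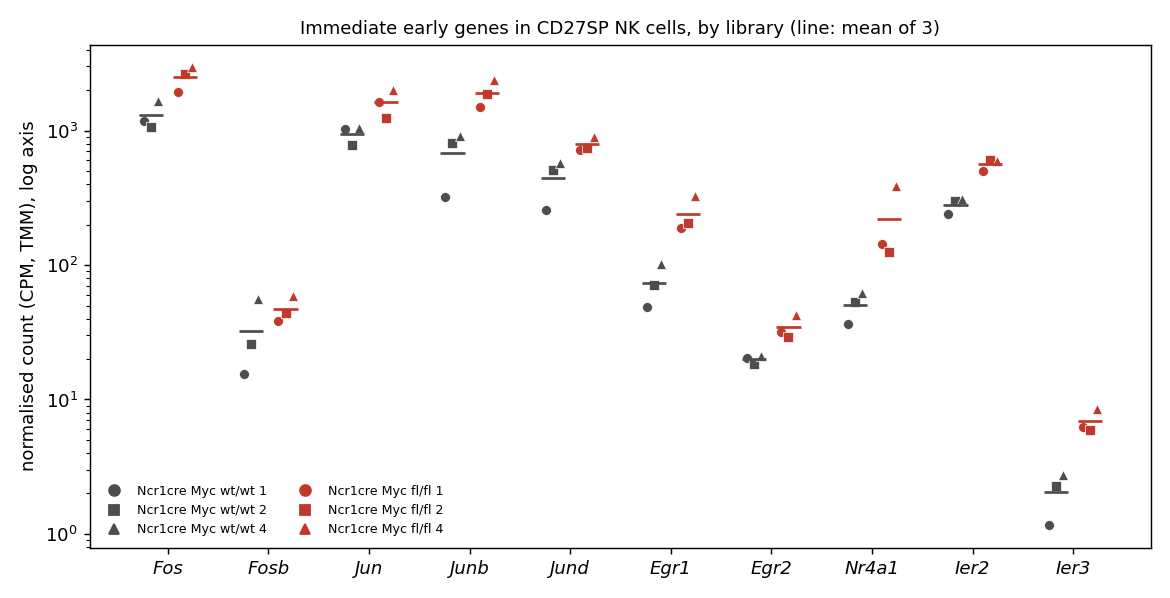
CPM (scaled by TMM, log axis) of the 10 immediate early genes in each of the 6 libraries, with replicates 1, 2 and 4 of each genotype as separate points (grey for wt/wt, red for fl/fl) and the mean of 3 as a line. The points of the genotypes are apart for every gene except Fosb.

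The call depended on how the replicate number was handled. Without the block, 2 of the 10 genes passed the same limit, Egr1 (adjusted p = 0.0063, edgeR) and Ier2 (adjusted p = 0.0038), against 1.31% of all genes. Fold changes without the block ranged from 0.51 for Fosb to 2.11 for Nr4a1 on the log2 scale, and the adjusted p-values without the block were 0.0195 for Fos, 0.022 for Junb, 0.0119 for Nr4a1 and 0.0117 for Ier3 (edgeR).

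Promoter sequence was taken from RefSeq (GRCm38.p6), in windows from 250 bases before to 50 after the annotated start, which were given for 8 of the 10 genes (Egr1 and Ier2 had no entry). Of these 8, 5 held the CRE half-site TGACG on either strand, the core of the sequence that CREB and ATF factors bind: Fos, Fosb, Junb, Egr2 and Nr4a1. It was found for 23% of the 27025 genes with such windows. The EGR site GCGGGGGCG was in the windows of Fosb and Nr4a1 and in those of 3.31% of genes. Stretches of 4 of the 5 genes are shown with these letters in capitals, on the gene's own strand from 5′ to 3′. Egr2, which has windows at several starts, is not printed, and its half-sites began 111 and 55 bases upstream of one of those starts. CGTCA and CGCCCCCGC are the same sites read on the opposite strand.
Fos (chr12:85473740-85473889, plus strand): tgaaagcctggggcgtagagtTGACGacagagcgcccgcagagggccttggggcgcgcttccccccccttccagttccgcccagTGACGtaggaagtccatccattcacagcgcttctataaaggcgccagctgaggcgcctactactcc
Fosb (chr7:19310046-19310145, minus strand): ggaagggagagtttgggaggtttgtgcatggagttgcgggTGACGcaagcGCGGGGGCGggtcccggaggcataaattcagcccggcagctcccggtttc
Junb (chr8:84978749-84978898, minus strand): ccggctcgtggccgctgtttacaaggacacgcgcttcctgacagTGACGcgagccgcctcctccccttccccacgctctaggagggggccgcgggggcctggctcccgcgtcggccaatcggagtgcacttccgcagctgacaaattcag
Nr4a1 (chr15:101266596-101266845, plus strand): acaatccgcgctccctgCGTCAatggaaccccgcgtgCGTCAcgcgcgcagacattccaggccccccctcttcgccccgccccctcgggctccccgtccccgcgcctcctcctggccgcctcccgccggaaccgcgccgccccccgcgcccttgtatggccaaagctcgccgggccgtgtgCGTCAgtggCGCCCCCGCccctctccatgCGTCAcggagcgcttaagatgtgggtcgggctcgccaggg
The half-sites began 129 and 66 bases upstream of the start in Fos, 60 in Fosb, 106 in Junb and 233, 213, 69 and 40 in Nr4a1. Distances count from the RefSeq start, which for Fosb, Junb and Nr4a1 is not the 5′ end of the gene coordinates given below. The EGR site began 50 bases upstream in Fosb and 60 in Nr4a1, just downstream of the half-site in Fosb and between the last pair of half-sites in Nr4a1. The full CRE TGACGTCA (2.03% of genes) and the AP-1 site TGACTCA (5.95% of genes) were in no window of the 8 genes, and TGACG is part of the full CRE. The E-box CACGTG, the letters MYC binds, was in 1 of the 8, Egr2, and in 8.09% of genes. Other searches found the TATA letters TATAAA on the gene's strand in Fos and Junb (9.77% of genes). They began 33 bases upstream of the start in Fos and at the start itself in Junb. CCAAT was in Jun, Junb, Egr2 and Ier3 (41.1%), the CArG box, which SRF binds, in Egr2 (1.81%), and the kappa B site in Fos, Fosb, Egr2 and Nr4a1 (6.55%). Neither the ETS site CCGGAAGT (4.31%) nor the EGR form GCGTGGGCG (0.707%) was in any of the 8. A match is a description of letters and says nothing of whether a factor was bound in these cells.

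Fos encodes the partner that makes AP-1 with a JUN protein and cannot form a homodimer (ENSMUSG00000021250.13, chr12:85473890-85477273, plus strand, GRCm38). It was at 1172, 1069 and 1657 CPM in Ncr1cre Myc wt/wt replicates 1, 2 and 4 and at 1929, 2617 and 2949 CPM in Ncr1cre Myc fl/fl replicates 1, 2 and 4, the order in which libraries are given from here on. The lowest Myc-deficient library was 1.16 times the highest control library, a narrow gap beside the range within each genotype. Fos rose, with a log2 fold change of 0.95 (SE 0.16, 95% interval 0.60 to 1.29, adjusted p = 0.0078, edgeR). In each of the 9 fits that left out libraries the adjusted p was above the limit, between 0.0152 and 0.0712, and the log2 fold change was between 0.78 and 1.16.

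Fosb, which encodes another FOS protein that pairs with JUN proteins (ENSMUSG00000003545.3, chr7:19302696-19310051, minus strand), was at 15.6, 25.9 and 56.0 CPM in control libraries and at 38.4, 44.2 and 58.8 CPM in Myc-deficient libraries. The genotypes overlapped, since Ncr1cre Myc wt/wt replicate 4 was above Myc-deficient replicates 1 and 2. Its log2 fold change of 0.69 (SE 0.22, 95% interval 0.20 to 1.18) did not pass (adjusted p = 0.0887, edgeR), and it was 0.51 without the block. With no block it was 0.19 without Ncr1cre Myc wt/wt replicate 1 and 1.16 without Ncr1cre Myc wt/wt replicate 4.

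Jun (ENSMUSG00000052684.4, chr4:95049034-95052222, minus strand) encodes the founding member of the JUN family, which can act as a homodimer or with a FOS protein. It was at 1037, 776.3 and 1038 CPM in control libraries and at 1641, 1251 and 2009 CPM in Myc-deficient libraries. Every Myc-deficient library was above every control library, by a factor of 1.21 at the nearest. For Jun the log2 fold change of 0.77 (SE 0.14, 95% interval 0.46 to 1.08) missed the limit of 0.01 (adjusted p = 0.0110, edgeR).

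Junb, whose product often opposes JUN at target genes (ENSMUSG00000052837.6, chr8:84974484-84978718, minus strand), had the largest estimate of the 3 JUN genes. It was at 322.3, 802.6 and 907.1 CPM in control libraries and at 1489, 1873 and 2397 CPM in Myc-deficient libraries. The shallow control library was the lowest by far, and the nearest libraries of the genotypes still differed 1.64 times. Junb rose by a log2 fold change of 1.61 (SE 0.20, 95% interval 1.17 to 2.04, adjusted p = 0.0029, edgeR). Without Ncr1cre Myc wt/wt replicate 1, in a fit with no block, it was 1.15 (adjusted p = 0.0147).

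Jund (ENSMUSG00000071076.6, chr8:70698949-70700616, plus strand) encodes the JUN protein that is present in most resting cells and is the least inducible of the family. It was at 255.7, 507.8 and 577.6 CPM in control libraries and at 720.0, 746.5 and 903.9 CPM in Myc-deficient libraries. Here too the shallow library was lowest and the genotypes were apart. The log2 fold change was 0.89 (SE 0.19, 95% interval 0.47 to 1.32, adjusted p = 0.0218, edgeR), and without Ncr1cre Myc wt/wt replicate 1 and with no block it was 0.53.

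Egr1 encodes a zinc finger factor that binds GC-rich sites and relays ERK signals to later genes (ENSMUSG00000038418.7, chr18:34859823-34864984, plus strand). It was at 48.8, 71.6 and 101 CPM in control libraries and at 189.9, 206.7 and 324.7 CPM in Myc-deficient libraries. The lowest Myc-deficient library was 1.88 times the highest control library. Egr1 had the smallest adjusted p of the 10 genes, with a log2 fold change of 1.72 (SE 0.14, 95% interval 1.40 to 2.04, adjusted p = 0.00077, edgeR). It was the gene that passed in the most of the 21 alternative settings, 14, with log2 fold changes from 1.61 to 1.83 in those and from 1.42 to 1.99 over all 21.

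Egr2, a relative that restrains activation in T cells and is needed for NKT cell development (ENSMUSG00000037868.15, chr10:67535475-67542188, plus strand), was far less abundant. It was at 20.3, 18.2 and 21.2 CPM in control libraries and at 31.9, 29.2 and 42.3 CPM in Myc-deficient libraries. The SD of the control libraries was 7.66% of their mean, the smallest of the 10 genes in that genotype, and the genotypes were apart. The log2 fold change was 0.78 (SE 0.17, 95% interval 0.41 to 1.15, adjusted p = 0.0225, edgeR). Its relative Egr3, singled out after its values were seen, had a log2 fold change of −0.48 (adjusted p = 0.465, edgeR) at means of 2.94 and 2.11 CPM.

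Nr4a1 encodes NUR77, an orphan nuclear receptor induced by antigen receptor signals in lymphocytes (ENSMUSG00000023034.7, chr15:101254269-101274795, plus strand). It was at 36.4, 53.0 and 62.0 CPM in control libraries and at 143.0, 125.4 and 389.8 CPM in Myc-deficient libraries. All Myc-deficient libraries were at least 2.02 times the highest control library, and replicate 4 stood well above the other two. The log2 fold change of 1.96 was the largest estimate of the 10 genes (SE 0.24, 95% interval 1.43 to 2.49, adjusted p = 0.0029, edgeR). Without Ncr1cre Myc fl/fl replicate 4 and with no block it was 1.41 (adjusted p = 0.0085). Its relatives Nr4a2 and Nr4a3, also named after their values were seen, had log2 fold changes of 0.11 and 0.56 (adjusted p = 0.805 and 0.192, edgeR).

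Ier2 encodes a small nuclear protein of the early response (ENSMUSG00000053560.4, chr8:84661331-84662852, minus strand). It was at 239.1, 298.2 and 308.3 CPM in control libraries and at 504.0, 602.0 and 590.6 CPM in Myc-deficient libraries. Both genotypes were tight, and the gap between them was 1.63 times. Ier2 rose by a log2 fold change of 1.01 (SE 0.13, 95% interval 0.72 to 1.30, adjusted p = 0.0035, edgeR).

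Ier3, also known as IEX-1, encodes a regulator of cell death and of ERK and NF-kappa B signalling (ENSMUSG00000003541.6, chr17:35821684-35822923, plus strand). It was at 1.17, 2.27 and 2.73 CPM in control libraries and at 6.21, 5.94 and 8.48 CPM in Myc-deficient libraries. It was the least abundant of the 10 genes, with 9 counts in Ncr1cre Myc wt/wt replicate 1, for which counting error alone gives a 95% exact Poisson interval of 0.535 to 2.22 CPM. The nearest libraries of the genotypes differed 2.18 times. Its log2 fold change was 1.73 (SE 0.30, 95% interval 1.05 to 2.41, adjusted p = 0.00998, edgeR), just inside the limit.

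**Figure D2:**
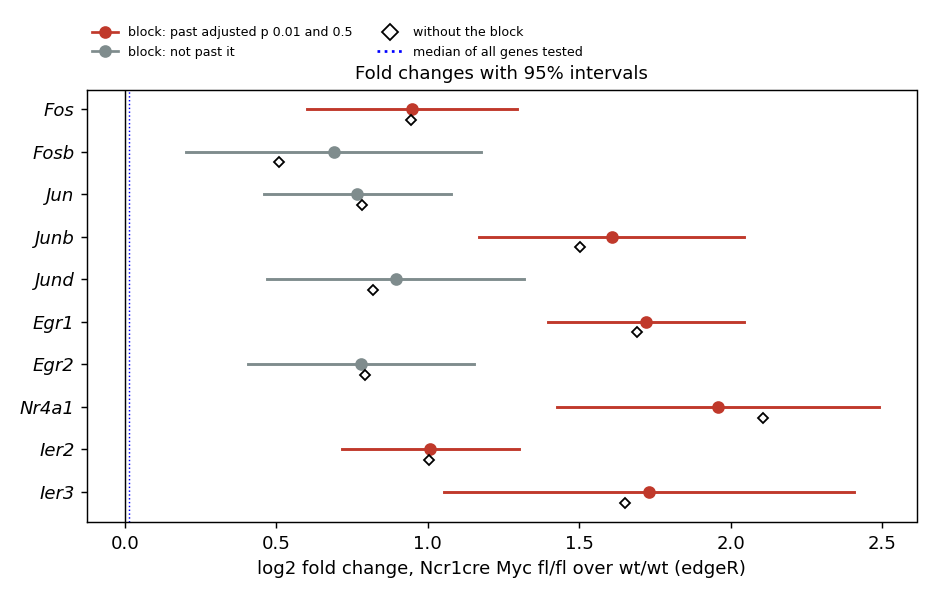
Log2 fold change (Ncr1cre Myc fl/fl against wt/wt, edgeR) of the 10 genes with the block as dots with 95% intervals as lines (red for the 6 genes past the limit, grey for the others) and without the block as diamonds. All 10 estimates are above 0, from 0.69 for Fosb to 1.96 for Nr4a1, whereas the median of all genes tested (dotted line) is at 0.014.

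Leaving out both libraries of a replicate number, with the block kept, gave fewer calls. Junb and Egr1 passed without replicate 1, against 0.312% of all genes tested, Junb, Egr1 and Nr4a1 without replicate 2, against 0.561%, and these 3 with Ier2 without replicate 4, against 1.04%. The share of all genes called higher thus fell as well from 1.28%. With a single library left out and no block, Ier2 passed without Ncr1cre Myc wt/wt replicate 1 (0.708% of all genes) and Nr4a1 without Ncr1cre Myc fl/fl replicate 4 (0.734%). Of the 10 genes 0 passed without any of the other 4 libraries, where 9 or 10 had an unadjusted p under 0.05 (edgeR). Of all genes, 0.22% and 0.284% were called higher without Ncr1cre Myc wt/wt replicates 2 and 4 and 0.196% and 0.12% without Ncr1cre Myc fl/fl replicates 1 and 2. At an unadjusted p under 0.05 the shares of all genes in these 4 fits were 11.8%, 11.6%, 10.7% and 12.3%. The rule that a gene must pass by edgeR, limma-trend and DESeq2 alike kept 4 of the 10 genes, Junb, Egr1, Nr4a1 and Ier2, against 0.931% of all genes. DESeq2 alone called 9 of the 10 higher, and also more of all genes, 4.17%.

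Levels were compared between genes in TPM, which are scaled by transcript length. In Ncr1cre Myc wt/wt cells the order ran Fos (1070 ± 225 TPM, mean ± SD, n = 3), Junb (674 ± 341), Jund (572 ± 257), Jun (455 ± 55.5) and Ier2 (334 ± 69.2), followed at a distance by Egr1 (35.9 ± 13.3) and Nr4a1 (31.5 ± 9.56), then Fosb (13.9 ± 9.15), Egr2 (11.0 ± 0.518) and Ier3 (2.82 ± 1.17). The ranges of neighbours in this order were apart only between Jun and Ier2, between Ier2 and Egr1, and between Egr2 and Ier3. In Ncr1cre Myc fl/fl cells, Fos was at 2176 ± 363 TPM, Junb at 2040 ± 468, Jund at 1094 ± 138, Jun at 852 ± 201 and Ier2 at 729 ± 57.8. Nr4a1 (147 ± 98.4) had a higher mean than Egr1 (125 ± 38.1) through replicate 4 only (260.8 against 169.0 TPM), since it was below Egr1 in replicates 1 and 2. Both were above Fosb (21.5 ± 4.51), Egr2 (19.6 ± 4.38) and Ier3 (9.999 ± 2.02). Neighbours were apart here between Junb and Jund, between Ier2 and Nr4a1, between Egr1 and Fosb, and between Egr2 and Ier3.

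**Figure D3:**
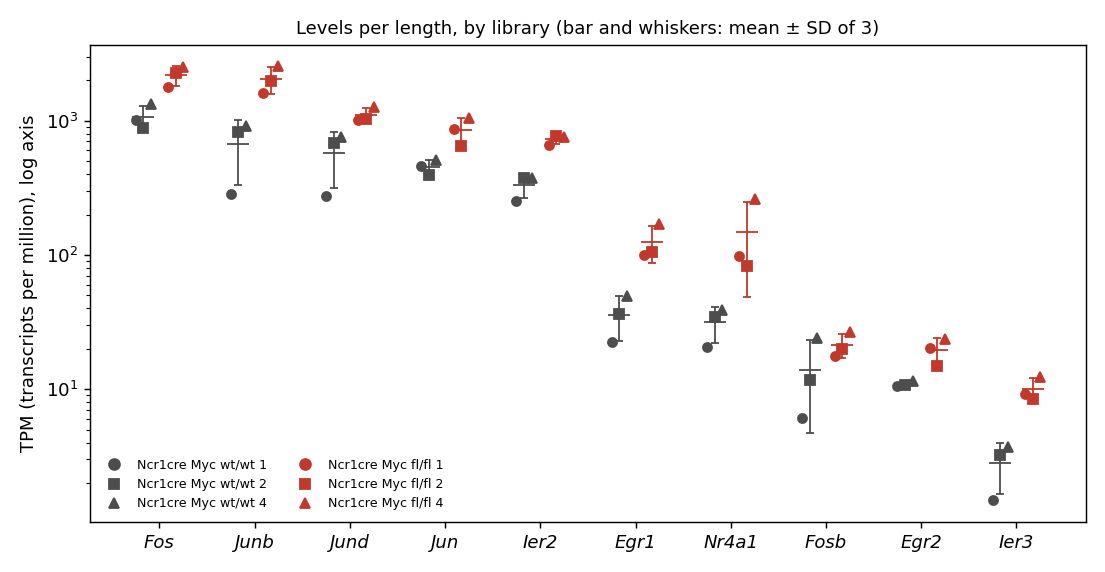
TPM (log axis) of the 10 genes in the 6 libraries, ordered by their mean in Ncr1cre Myc wt/wt, with each point a library (grey for wt/wt, red for fl/fl) and each bar with whiskers the mean ± SD of 3. Fos, Junb, Jund, Jun and Ier2 sit above the other 5 genes in both genotypes.

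The same libraries were low or high for most of the 10 genes. Averaged over the 10 genes, log2 CPM centred on each gene's mean was −1.05, −0.58 and −0.20 in control libraries and 0.39, 0.46 and 0.98 in Myc-deficient libraries. Ncr1cre Myc wt/wt replicate 1 had the lowest level of 7 of the 10 genes, and replicate 2 that of Fos, Jun and Egr2. Ncr1cre Myc fl/fl replicate 4 had the highest level of 9, with Ier2 highest in replicate 2. The same Myc-deficient library had the highest summed level of the 10 heat shock genes listed, 13837 CPM against 9138 to 9665 CPM in the other 5 libraries, and the part of this in its immediate early gene levels was not tested. The genes outside the list whose profile over the 6 libraries lay nearest this average, among those of at least 5 CPM, were Ppp1r15a (root mean square difference 0.108), Ahr (0.129), Zfp36 (0.130), Hivep3 (0.140) and Sorcs2 (0.141). These values describe 6 points that share their libraries and carry no test.

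For most of the 10 genes a single transcript held nearly all counts. Jun, Jund, Nr4a1, Ier2 and Ier3 each had 1 transcript in the tables, and Junb-201 held at least 99.9% of the counts of Junb. Fos-201 held between 91.1% and 96.5%, Egr1-202 between 87.0% and 95.9%, and Egr2-201 between 73.4% and 89.5%. For Fosb, the coding transcripts Fosb-201 and Fosb-207 held from 0 to 55.3% and from 0 to 61.3% of its counts across libraries. Both were at 0 in Ncr1cre Myc wt/wt replicate 1, where the coding transcripts Fosb-203 and Fosb-205 held 42.7% and 30.6%. Fosb-203 held at most 0.79% in Myc-deficient libraries, and the retained-intron transcript Fosb-204 held 10.6% to 26.7%. The library kit does not keep strand, so that reads of Jun cannot be told from those of its antisense gene Junos, which shares 689 bases with it, nor those of Jund from Gm11175, which shares 919. Junb shares 351 bases with Prdx2, a coding gene on the opposite strand, and the same limit holds there.

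Of 14 other genes of the AP-1 family listed, 13 were tested, 1 rose and 0 fell, with a median log2 fold change of 0.58. The gene that rose was Atf3, a stress-induced factor that dimerises with JUN proteins, at 1.95, 3.08 and 7.37 CPM in control libraries and at 13.03, 15.4 and 126 CPM in Myc-deficient libraries. Its log2 fold change of 3.13 (SE 0.34, adjusted p = 0.0019, edgeR) leaned on Ncr1cre Myc fl/fl replicate 4, without which, and with no block, it was 1.70 (adjusted p = 0.054). Without the block but with all libraries, Atf3 did not pass either (adjusted p = 0.0324, edgeR), and 0 of the 13 genes did, with 7 higher and 0 lower at an unadjusted p under 0.05. Atf2, the most abundant of the list, had a log2 fold change of −0.03 (adjusted p = 0.935).

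Of 24 other immediate early genes for transcription factors, 5 rose (Atf3, Bhlhe40, Hes1, Ier5l and Klf4) and Myc, the deleted gene, fell, with a median of 0.65. Without the block 4 were called higher, since Atf3 and Klf4 did not pass and Relb did. Hes1, a repressor downstream of Notch, went from 4.29 ± 1.94 to 21.1 ± 4.36 CPM (log2 fold change 2.30, SE 0.28, adjusted p = 0.0029, edgeR). Id2, an inhibitor of E proteins that innate lymphocytes require and the most abundant of the list, had a log2 fold change of 0.45 (adjusted p = 0.0765).

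Of 25 tested early genes for other effectors, 10 rose and 0 fell, with a median of 0.82. They were Btg1, Gadd45b, Nfkbia, Nfkbiz, Pim1, Plk2, Ppp1r15a, Socs3, Tnfaip3 and Zfp36. Without the block 7 of them passed, and Plk2, Ppp1r15a and Tnfaip3 did not. Socs3, the feedback inhibitor of JAK-STAT signalling, went from 49.6 ± 17.0 to 159 ± 45.4 CPM (log2 fold change 1.70, SE 0.19, adjusted p = 0.0022, edgeR). Gadd45b, a stress sensor upstream of p38, went from 12.1 ± 2.55 to 39.0 ± 10.3 CPM (1.68, SE 0.17, adjusted p = 0.0017). Btg1, an antiproliferative gene and the most abundant of the list, rose by 0.80 on the log2 scale (SE 0.13, adjusted p = 0.0078). In an edgeR fit without the block and without Ncr1cre Myc fl/fl replicate 4, Gadd45b passed (adjusted p = 0.0085), whereas Socs3 (adjusted p = 0.0162), Btg1 (adjusted p = 0.0122) and Hes1 (adjusted p = 0.0108) did not.

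Of 14 genes for feedback on MAPK signalling and for corepressors of EGR factors, 3 rose and 0 fell, with a median of 0.81. Dusp1, a phosphatase that switches off MAP kinases in the nucleus, was at 333.6, 592.0 and 714.1 CPM in control libraries and at 973.1, 1433 and 2106 CPM in Myc-deficient libraries (log2 fold change 1.46, SE 0.14, adjusted p = 0.0012, edgeR). Dusp6, which acts on ERK in the cytoplasm, went from 79.4 ± 11.2 to 221 ± 40.0 CPM (1.47, SE 0.13, adjusted p = 0.00099). Spry4, an inhibitor of receptor signalling to ERK, went from 4.08 ± 0.611 to 12.97 ± 2.40 CPM (1.63, SE 0.25, adjusted p = 0.006). Without the block, Dusp6 and Spry4 passed and Dusp1 did not (adjusted p = 0.0193, edgeR). With no block and without Ncr1cre Myc fl/fl replicate 4, Dusp6 passed (adjusted p = 0.0039, edgeR), whereas Spry4 (adjusted p = 0.0108) and Dusp1 (adjusted p = 0.0536) did not.

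Of 21 listed kinases and transcription factors upstream of the immediate early genes, such as Srf and Creb1, 0 passed in either direction by edgeR. Their median log2 fold change was 0.11. At an unadjusted p under 0.05, 1 was higher and 2 were lower (edgeR), beside 1913 higher and 1574 lower of all 15474 genes tested. limma-trend also called 0, and DESeq2 called 1 lower, Rps6ka3 (log2 fold change −0.96, adjusted p = 0.0132 by edgeR, named after its value was seen). Rps6ka1, the most abundant, had a log2 fold change of 0.29 (adjusted p = 0.254). Of 10 heat shock genes 0 passed by edgeR or limma-trend and 1 by DESeq2, Hspd1, which was lower. Their median was −0.12, with 0 higher and 2 lower at an unadjusted p under 0.05 (edgeR), Hspd1 and Hspe1 (log2 fold changes −0.65 and −0.37). Of the 10 genes, 6 were below 0 and 4 above it, Hspa1a (0.33), Hspa1b, Dnaja1 (0.21) and Dnajb1 (0.14). Hspa1b, the most abundant, had a log2 fold change of 0.41 (adjusted p = 0.263, edgeR).

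**Figure D4:**
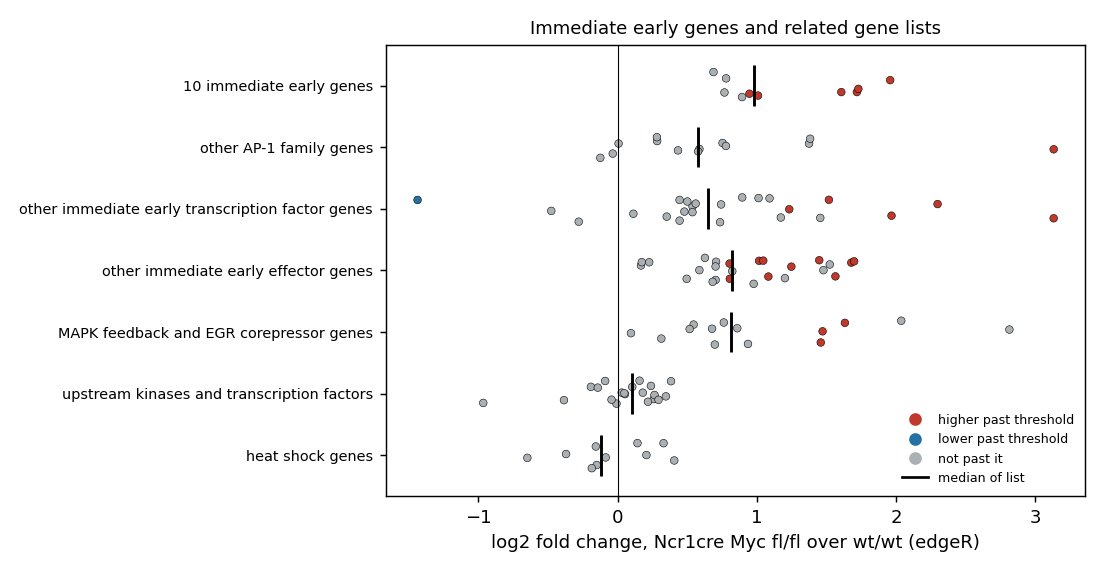
Log2 fold change (Ncr1cre Myc fl/fl against wt/wt, edgeR) of every tested gene of the 10 immediate early genes and of the 6 related lists, with each point a gene (red if higher past the limit, blue if lower, grey if neither) and each line the median of its list. The median is 0.98 for the 10 genes, 0.82 for the effectors, 0.11 for the upstream kinases and factors and −0.12 for the heat shock genes.

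Markers of other BM cells differed between the genotypes alongside these genes. Of the 9 basophil and mast cell genes listed, 9 rose, and their sum was 82.1 to 101 CPM in control libraries and 256 to 523 CPM in Myc-deficient libraries. In control libraries Kit made up most of this sum, at 84.3, 63.6 and 83.4 CPM. Of 7 granulocyte-monocyte progenitor genes, 6 rose, with sums of 92.1 to 138 and 560 to 905 CPM, and Mpo, the most abundant, had a log2 fold change of 2.60 (SE 0.16, adjusted p = 0.00013, edgeR). The erythroid sum was 46.6 to 285 against 569 to 1188 CPM (3 of 8 genes rose), the dendritic cell sum 472 to 534 against 981 to 1218 CPM (3 of 8), and the platelet sum 8.70 to 15.1 against 22.2 to 70.3 CPM (1 of 6). Irf8 (means of 270 and 658 CPM) and Itgax (144 and 278 CPM) made up most of the dendritic cell sum in both genotypes. The genotypes overlapped for Bst2 and Xcr1 of that list and were apart for the other 6 genes. The monocyte and macrophage sum was 1670 to 1876 against 2101 to 2391 CPM (4 of 8 genes tested), of which Ccr2 made up most, while Fcgr1 was at 0 in all Ncr1cre Myc wt/wt libraries and Adgre1 in replicates 1 and 2. Neutrophil genes summed to 3.90 to 15.8 against 14.5 to 30.0 CPM (1 of 7). No gene passed among 10 of NK cells, 6 of ILC1, 7 of B cells and 9 of T cells by edgeR, of which 2, 2, 3 and 3 were higher and 1, 0, 0 and 1 lower at an unadjusted p under 0.05. The ILC1 sum was 194 to 287 against 270 to 344 CPM, the B cell sum 580 to 1500 against 576 to 758 CPM and the T cell sum 914 to 1269 against 913 to 1176 CPM. Ighm made up nearly all of the B cell sum, at 1496, 572.1 and 594.9 CPM in control libraries. Of the 7 B cell genes tested, Cd79a and Cd79b were higher in every Myc-deficient library than in every control library, and 0 were lower in that way. Cd79b was at 5.17 ± 1.77 CPM in control and 9.32 ± 0.286 CPM in Myc-deficient libraries. Ncr1cre Myc fl/fl replicate 4, in which 9 of the 10 immediate early genes were highest, had the lowest basophil and mast cell, erythroid, platelet, monocyte and B cell sums of the Myc-deficient libraries and the highest progenitor, dendritic cell, neutrophil, T cell, ILC1 and NK cell sums. Single genes set some of these ranks. Across Myc-deficient replicates 1, 2 and 4, Prf1 of the NK cell list was at 846.4, 891.4 and 1988 CPM. Itga1 of the ILC1 list was at 12.9, 9.88 and 65.6 CPM, Ighm at 656.3, 745.7 and 560.6 CPM, and Ccr2 at 2019, 1875 and 1670 CPM. The ranks therefore describe the sums and not the share of a cell type. The part of these other cells in the immediate early gene levels was not tested.

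**Figure D5:**
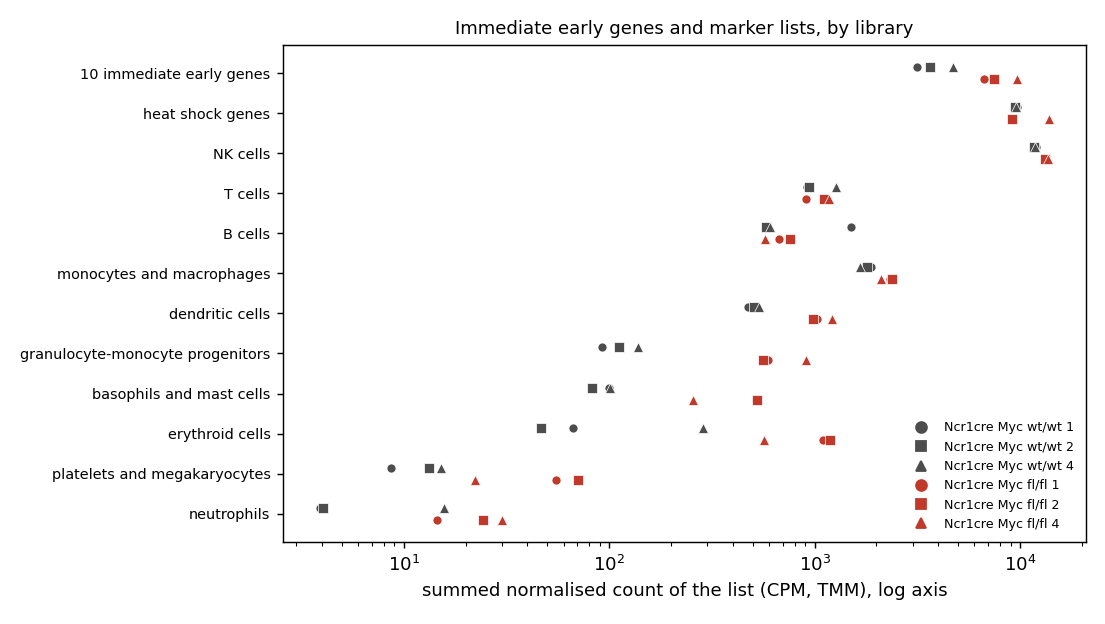
Summed CPM (log axis) of the 10 immediate early genes, the heat shock genes and the marker lists other than that of ILC1, with each point a library (grey for wt/wt, red for fl/fl). The basophil and mast cell, progenitor and dendritic cell sums are apart between the genotypes, whereas the T cell and B cell sums overlap, the B cell sum being nearly all Ighm.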

How the data were processed

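RNA-seq was performed by the authors on sorted CD27SP NK cells from BM, with SMART-Seq v4 libraries sequenced single end. Transcripts were quantified by the authors, and the deposited tables give estimated counts, which are not normalized, and TPM for each of 100583 transcripts. The submitters' notes name Salmon and GRCh38, while the identifiers are those of mouse transcripts and the columns have the layout of kallisto.

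Estimated counts were summed by symbol through GENCODE M21 (100239 transcripts matched, 25690 symbols) and rounded. Genes were kept by filterByExpr, scaled by TMM and compared by edgeR (4.0.16) quasi-likelihood tests in R 4.3.3. The replicate number entered as a block, since the study's own comparison was paired. The Benjamini-Hochberg adjustment ran over 15474 genes, and a gene passed with an adjusted p under 0.01 and a log2 change of 0.5 or more in size. Alternatives were DESeq2 (1.42.0), limma-trend (3.58.1), fits without the block, other scalings and filters, log2(TPM + 1), and left-out libraries. The code was tested on simulated data.

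The 10 genes and all gene lists were chosen with earlier results of these data known, and several listed genes are among those the study showed. From each related list, every gene past the limit was named if there were 4 or fewer, and otherwise the 2 largest rises and falls, together with the most abundant gene. From marker lists the most abundant or defining genes were named, and the 5 genes nearest in profile. Other genes of the marker and heat shock lists were named after their values were seen. Replicate libraries differed beyond counting noise. Counting error is largest in Ncr1cre Myc wt/wt replicate 1, the library with the lowest total count.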

Additional observations from a re-analysis of the deposited data

How the results depend on the processing

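All 209 log2 fold changes of the 10 genes under 21 alternative settings were above 0, from 0.19 to 2.39. The settings share libraries, and the setting that changed only the limit repeats the main estimates. Of the 209, 132 stayed on the same side of the limit, 67 no longer passed and 10 now passed. The 67 all belonged to the 6 genes called higher. The call was lost in 7 of 21 settings for Egr1, 9 for Ier2, 10 each for Junb and Nr4a1 and 15 for Fos. For Ier3 it was lost in 16 of 20. Many of the 132 were values that passed in neither fit, 21 for Fosb, 18 for Egr2, 17 for Jun and 18 for Jund. The count of genes called higher, 6 of 10, was 2 without the replicate block, 2 with scaling by library size only, 1 with offsets from effective lengths and 0 by limma-trend on log2(TPM + 1), where 10 of 10 had an unadjusted p under 0.05 and 2195 genes were higher and 1108 lower by that measure. It was 9 by DESeq2 and between 0 and 4 with libraries left out. The median log2 fold change, 0.98, was between 0.87 and 1.16 with libraries left out. Whether the numbers pair the libraries was not shown: deviations of same-numbered libraries correlated at −0.01, −0.02 and 0.05 over 15474 genes, and 1 of 3 Ncr1cre Myc wt/wt and 1 of 3 Ncr1cre Myc fl/fl libraries correlated best with its own number. Without the block 203 genes were higher and 184 lower overall. Over all genes, 198 higher and 135 lower became 645 and 548 by DESeq2, 49 and 25 with library size only, 24 and 8 with effective length offsets, 0 and 0 by limma-trend on log2(TPM + 1), 524 and 378 without a low-count filter, 689 and 523 at an adjusted p below 0.05 and 144 and 78 by limma-trend. With libraries left out they were 19 to 162 and 6 to 130. The causes of these changes were not tested. Depth limits Ier3 most, with 9 counts in the shallow library.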
